A study of Mus musculus with 18 samples.

Results

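The narrow shared open regions of reprogramming fibroblasts are stretches of accessible chromatin that were called in every one of 6 ATAC-seq libraries and stayed under 2000 bp when the 6 peak lists were merged. They numbered 65701, which was 20.4% of the 321676 merged regions and 85.3% of the 76980 regions found in all 6 lists. They covered 72.0 Mb. Peak presence in every list and merged width chose them, so the members were selected on the caller's q in each list and on peak ends. Presence and width are therefore descriptions here and carry no test. The rule was worded alike for both experimental groups and used no difference between them. It did not bear on them equally, because most regions missing from a single list were missing from the shortest, as described below. Every member had to pass the calling threshold in every list, so a site closed in either group is not among them.

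The cells were mouse embryonic fibroblasts of the R26-M2rtTA line on the C57BL/6 strain. All 6 libraries came from cells carrying doxycycline-inducible lentiviral vectors for the neuronal transcription factors Brn2 and Myt1l. The 3 libraries of the first group (BM) had these factors alone, and the 3 of the second (BM with Ikzf1/4) also had vectors for Ikzf1 and Ikzf4. Nuclei, 50000 per library, were taken 48 h after doxycycline was added. R26-M2rtTA mice make the doxycycline-responsive activator from the Rosa26 locus, so the vectors can be switched on in any infected cell. The factors were supplied by vectors, and no group without Brn2 and Myt1l was compared here. The labels do not say whether the replicates were separate cultures, so p-values measure only the spread between these libraries. A peak value is a mean over infected and uninfected cells, and fewer cells with an open site and a less open site in each cell cannot be told apart.

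Transposase cuts DNA where nucleosomes are displaced, so ATAC-seq marks promoters, enhancers and insulators. Short open sites are usually single regulatory elements, whereas wide ones often join neighbouring elements. Ikzf1 (Ikaros) and Ikzf4 (Eos) are zinc finger proteins that can both repress and activate genes and that recruit chromatin remodelling complexes, and Ikzf1 is known in the retina as a temporal identity factor of progenitor cells. The comparison asked how far the level at such sites moved when Ikzf1 and Ikzf4 were added to Brn2 and Myt1l.

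The labelled cell type was checked on RNA-seq of fibroblasts from the same 2 groups. In the authors' deposited table all 12 fibroblast markers examined had a mean normalised count above 0, from 269 for Lum to 228033 for Fn1, the gene of fibronectin. Of these 12, 9 had an adjusted p under 0.05 between the groups in that authors' deposited table and 10 were lower with Ikzf1/4, with log2 fold changes of -1.77 for Dcn and -1.29 for Col3a1. Of the 3 skeletal muscle markers in the authors' deposited table, Myod1 and Myog were at 0.159 and 0.160 and Des at 83.5. Of the 3 neuronal markers in the authors' deposited table, Rbfox3 was at 0.194, Snap25 at 5.42 and Syt1 at 7600, and Syt1 was lower with Ikzf1/4 (log2 fold change -0.47, adjusted p = 4.04e-12). Blood and macrophage markers were present in the authors' deposited table, with Ptprc at 1168, Cd68 at 1146 and Adgre1 at 1620. None of these 3 had an adjusted p under 0.05 in the authors' deposited table, where their log2 fold changes ran from -0.20 to 0.15. In the authors' deposited table the 4 epithelial markers were at 0.164 to 41.0 and the 3 endothelial ones at 6.57 to 132. The highest of the epithelial markers, Epcam, was higher with Ikzf1/4 in the authors' deposited table (log2 fold change 0.64, adjusted p = 0.0147), and no other marker of these 2 lists had an adjusted p under 0.05. The part of these marker levels in the open regions was not tested.

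The BM lists held 200040, 169646 and 131297 peaks, and the lists with Ikzf1/4 held 197858, 200383 and 207243. Of these peaks, 33.5%, 39.3% and 51.1% lay in narrow shared regions in the BM lists, and 34.1%, 33.4% and 32.5% in the lists with Ikzf1/4. The median fold enrichment, the authors' value for each peak over the caller's background, was 3.32, 3.22 and 3.11 in the BM lists and 3.38, 3.31 and 3.39 with Ikzf1/4. Peaks outside these regions had medians of 2.48 to 2.67. Members needed a call in every list, and each is given by its highest peak. Higher values than elsewhere, in fold and in -log10 q, are therefore part of the choice. The median -log10 q, which grows with depth as well as with signal, was 5.64, 4.23 and 4.19 in the BM lists and 5.30, 5.25 and 5.83 with Ikzf1/4, beside 2.13 to 2.67 for other peaks. Wide regions found in all 6 lists had medians close to those of the narrow ones, 3.04 to 3.26 for fold and 4.25 to 5.74 for -log10 q, so these levels are not particular to narrow regions. The groups overlapped in both measures, and BM replicate 1 lay within the range of the second group in -log10 q.

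**Figure D1:**
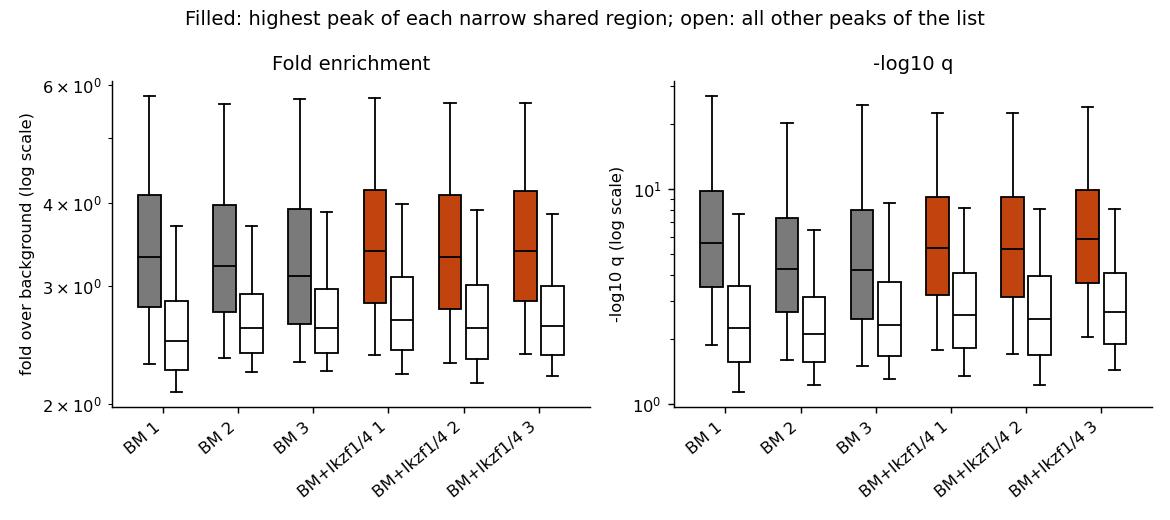
Fold enrichment and -log10 q per list, both on log axes; filled boxes are the highest peak of each of the 65701 narrow shared regions and open boxes all other peaks, with the median, the quartiles and whiskers at the 5th and 95th percentiles. Filled medians run from 3.11 to 3.39 for fold and open medians from 2.48 to 2.67, a gap that the choice of members favours.

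With 3 libraries a group the smallest possible p of an exact test is 0.1, so the medians of the whole set are given as values from which no lack of difference can be read. The mean of the library medians of log2 fold was 1.68 ± 0.05 (SD, n = 3) for BM and 1.75 ± 0.02 (SD, n = 3) with Ikzf1/4, a difference of 0.06 (two-sided exact permutation p = 0.2, adjusted 0.375 over the 5 measures computed). It was 0.04 without BM replicate 3 and -0.00834 over members at a -log10 q of at least 5 in all lists. The median -log10 q was 4.68 ± 0.83 and 5.46 ± 0.32 (SD, n = 3; exact permutation p = 0.3, adjusted 0.375). That difference of 0.776 was 1.25 without BM replicate 1 and -0.0198 over members at a -log10 q of at least 5. The median length covered by peaks in a region was 660 ± 107 bp and 674 ± 23.5 bp (SD, n = 3). Peaks per region and list were 1.02 in both groups. The share of a list's peaks that lay in these regions was 41.3% ± 8.98 and 33.3% ± 0.771 (SD, n = 3). Each list had 66754 to 67406 peaks in members, so this share followed the length of the list and was highest, at 51.1%, in the shortest, that of BM replicate 3. The rule bounds these last 3 measures, which are given as descriptions.

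In 60660 of these sites (92.3%) every list had exactly 1 peak. The width limit favours this and the lists hold no summits, so it does not show that a site is a single element. The merged width had a median of 1060 bp, with 737 and 1429 bp as quartiles. The smallest width, 143 bp, was that of chr14:86598804-86598946 (mm9, as for all positions here), and the largest, 1999 bp, was reached at chr2:154394231-154396229 among others. The first bases of the 6 lists' peaks spanned a median of 248 bp and the last bases 250 bp. The gap to the next narrow shared region had a median of 20.8 kb.

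On both sides of the width limit the levels were close. The 2026 members of 1900 to 1999 bp had a median mean fold of 3.35 and the 1750 regions of 2000 to 2099 bp one of 3.28. Their medians of mean -log10 q were 5.76 and 5.49. By the limma test described further on, 14.4% of those inside and 17.4% of those outside were called changed. At 1999 bp, chr12:14691677-14693675 had folds of 2.57, 2.37 and 2.58 without Ikzf1/4 and 2.76, 2.56 and 2.58 with them. At the same width chr14:16595719-16597717 had 2.68, 3.19 and 2.99 against 2.59, 3.39 and 2.67, and chr12:37296283-37298281 had 4.02, 3.78 and 3.46 against 4.72, 4.92 and 4.95. The groups overlapped at the first of these sites and at the second, and were apart at the third. At 2000 bp, just outside, chr8:5378259-5380258 had 3.15, 3.44 and 2.72 against 2.24, 2.26 and 2.51. There chr19:7456446-7458445 had 3.96, 4.28 and 4.06 against 4.30, 4.02 and 3.67, and chr1:15323551-15325550 had 3.81, 4.46 and 3.65 against 3.57, 2.95 and 3.35.

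Regions found in all lists but 1 were mostly missing from the shortest list. Of the 30702 regions found in exactly 5 lists, 17879 (58.2%) were missing from BM replicate 3, against 957 (3.12%) missing from BM replicate 1. From 1639 to 3356 were missing from each list with Ikzf1/4, and 3825 from BM replicate 2. The median fold of the regions missing from BM replicate 3 was 2.73 in the lists that had them. The members, chosen for a call in every list, had 3.11 to 3.39. The need for a call in every list thus bore most on BM replicate 3 and least on BM replicate 1. Whether this choice of members shifted the balance of rises and falls was not tested.

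Across the genome, members made up 17.8% (chromosome 16) to 24.3% (chromosome 19) of all merged regions of an autosome. On the X chromosome they were 10.0%, or 1078 of 10755, and on the Y chromosome 11 of 113. The X chromosome regions had a median mean fold of 3.07, against 3.22 to 3.44 on the autosomes. These differences between chromosomes were not tested.

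The strength of a site was repeatable within a group and less so between groups. Over the 65701 regions, Pearson's r of log2 fold was 0.83 to 0.86 between BM lists and 0.85 to 0.86 between lists with Ikzf1/4, and 0.61 to 0.67 across groups. These are correlations across regions of the same libraries, which are not independent replicates, and they are given as a description. The SD of log2 fold within a group had a median of 0.13 for BM and 0.12 with Ikzf1/4. The highest fold of the 6 lists was a median of 1.39 times the lowest. It was within 1.25 times in 14060 regions (21.4%), and at least 2 times in 1896 (2.89%).

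Region by region, a change of level was called at a minority of sites, in both directions. The log2 folds, each list set to the same median over all regions found in 6 lists, were tested with limma, and the p-values were adjusted over all 76980. Of the members, 15048 (22.9%) passed an adjusted p of 0.05, beside 21.5% of all regions tested. In 6831 (10.4%) the fold was higher with Ikzf1/4, beside 9.79% of all tested, and in 8217 (12.5%) it was lower, beside 11.8%. For fold times covered length 12.2% of members were called, beside 6.11% higher and 6.45% lower of all regions tested. The share of members called was 15.8% to 18.9% with any 1 library left out. It was 11.5% among members at a -log10 q of at least 5 in all lists. No share over all regions was computed for these last settings. The changes were small, with a median ratio of 1.38 among rises and of 0.732 among falls. The median log2 difference over all members was -0.03, as over all regions tested. Requiring an absolute log2 difference over 1 as well left 52 rises (0.0676% of all tested) and 49 falls (0.0637%), every one of them in a narrow region. The extremes of wide regions, 0.999 and -0.959, fell short of that size, and 85.3% of all regions tested were narrow. At the adjusted p alone, regions of 2000 bp or more passed in 13.7% of cases. This difference from the narrow ones was not tested, and the regions next to the width limit did not show it.

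Which direction prevailed depended on the scaling. With the deposited folds left uncentred there were 9069 rises and 5273 falls, beside 13.2% higher and 7.43% lower of all regions tested. Of the calls among members, 63.2% were upward in that fit, against 45.4% after centring. Quantile normalisation gave 7340 rises and 7109 falls, beside 10.5% and 10.1% of all regions tested. The number of calls was 14342 to 15048 over these settings, and no member changed direction between the centred fit and the others among calls of both. As deposited, the folds of the groups did not overlap, upward, at 14713 members (22.4%; 22.5% of all tested) and, downward, at 9907 (15.1%; 14.7% of all tested).

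**Figure D2:**
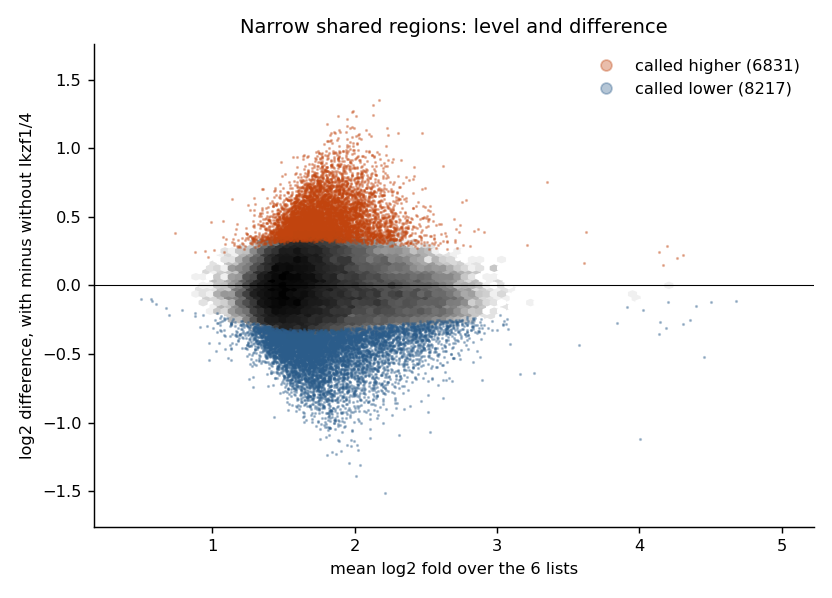
Mean log2 fold over the 6 lists (x) against the log2 difference between groups after median centring (y); grey hexagons count regions that were not called, points are called regions. The 6831 rises and 8217 falls lie on both sides, and the extremes of 1.35 and -1.51 have mean folds of 5.09 and 5.26.

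The -log10 q moved with the fold. By the same limma test on log2 of the -log10 q, 7962 members were higher (12.1%; 11.6% of all tested) and 10806 lower (16.4%; 16.0% of all tested). Here too the prevailing direction turned without centring, to 10795 higher and 5389 lower, beside 15.9% and 7.80% of all tested. Of the members with a raised fold, 6427 (94.1%) were also called upward by q, and of those with a lowered fold 7900 (96.1%) downward. Over all regions tested the same shares were 93.1% and 95.7% (9.12% and 11.3% of all tested were called by both), so this overlap is not particular to the members. No member was called in opposite directions. Both values come from the same reads of the same peak, so the second is no independent evidence.

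The 8 rises and 8 falls described next were picked as the largest called changes among members whose groups did not overlap, so that separation is part of the choice. The largest rises were at sites with low folds in the BM lists and high ones with Ikzf1/4. The first, chr6:136862882-136863536, 655 bp wide, had folds of 2.91, 2.45 and 2.96 in the BM lists and of 7.07, 6.78 and 8.37 with Ikzf1/4. All 3 lists with Ikzf1/4 were above all 3 BM lists by a wide margin. The log2 difference was 1.35 (SE 0.12, limma adjusted p = 2.34e-06, n = 3 per group), a ratio of 2.55 after centring. Its peaks were also longer, going from 312, 265 and 149 bp to 603, 655 and 524 bp. The mean -log10 q went from 2.85 to 26.0.

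At the next largest rise, chr11:59170820-59171405, the folds were 2.47, 3.25 and 2.48 without and 6.83, 6.36 and 8.07 with Ikzf1/4 (log2 difference 1.32, SE 0.13). Its covered length was 382, 352 and 541 bp without and 525, 493 and 543 bp with Ikzf1/4. The lengths of the groups overlapped there, while the folds did not. At chr2:103119961-103120743 the folds were 2.78, 2.40 and 2.34 without and 6.29, 6.34 and 6.34 with Ikzf1/4, the tightest upper group of the 8 largest rises (6.32 ± 0.03, SD, n = 3). At chr13:39926703-39927376 they were 2.57, 2.53 and 2.40 against 6.06, 6.25 and 6.49. Both sites more than doubled in every list of the second group relative to every list of the first.

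The other 4 of these 8 were alike in form. The folds at chr1:154503239-154503694 went from 2.65, 2.84 and 2.87 to 6.69, 7.20 and 6.79. At chr11:56113567-56114352 they went from 2.53, 2.43 and 2.75 to 6.53, 5.97 and 6.43. The chr1 site was the narrowest of the 8, at 456 bp, and the sets of lists were apart at both. At chr7:118000423-118001241 the folds were 2.37, 2.77 and 2.31 and then 6.09, 6.20 and 5.69. At chr12:118400325-118401413 they were 2.13, 2.45 and 2.27 and then 5.21, 5.90 and 5.10. This last site was the widest of the 8, at 1089 bp, and the one whose -log10 q rose most by ratio, from a mean of 1.37 to 18.3. Over the 8 rises the ratios ran from 2.26 to 2.55 and the limma adjusted p from 2.34e-06 to 1.11e-05 (higher in 3 of 3 libraries against 3 of 3 at each). The BM folds at these sites, 2.13 to 3.25, lie beside a 5th percentile of all members of 2.29 to 2.34 in the same lists.

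The largest falls were the reverse, sites with high folds in the BM lists and low ones with Ikzf1/4. The first, chr16:7026856-7027813, 958 bp wide, had folds of 8.13, 7.95 and 7.01 in the BM lists and of 2.94, 3.18 and 2.38 with Ikzf1/4. All 3 BM lists were above all 3 others. Its log2 difference of -1.51 (SE 0.12, limma adjusted p = 1.48e-06, n = 3 per group) was the largest in size of either direction. Peaks there were shorter as well, going from 891, 826 and 958 bp to 486, 659 and 585 bp, and the mean -log10 q went from 26.3 to 3.13.

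At chr17:16022726-16023360 the folds were 5.82, 7.14 and 6.25 without and 2.44, 2.51 and 2.70 with Ikzf1/4 (log2 difference -1.39, SE 0.12). The covered length there was 610, 539 and 628 bp and then 181, 276 and 281 bp. Both fold and length were lower there in every list with Ikzf1/4. At chr11:104534785-104535483 the folds were 6.50, 6.50 and 6.04 against 2.61, 2.42 and 3.02. At chr11:83503276-83503962 they were 7.30, 5.80 and 5.00 against 2.29, 2.63 and 2.70. The second of these chromosome 11 sites had the most variable BM lists of the 8 falls (6.03 ± 1.17, SD, n = 3), with 5.00 as the lowest of its BM folds and 2.70 as the highest with Ikzf1/4.

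The remaining falls among the 8 were smaller. At chr4:10124060-10125021 the folds were 5.79, 5.68 and 4.44 against 2.43, 2.21 and 2.36. At chr4:24691483-24692611 they were 5.56, 5.27 and 5.63 against 2.45, 2.69 and 2.22. The second chromosome 4 site was the widest of the 8 falls, at 1129 bp. At chr10:86074874-86075649 the folds were 5.35, 5.50 and 5.19 against 2.53, 2.24 and 2.47. At chr14:60334680-60335759 they were 5.10, 6.69 and 5.08 against 2.36, 2.48 and 2.75. Ratios over the 8 falls ran from 0.350 to 0.433, with limma adjusted p from 1.48e-06 to 1.29e-05 (lower in 3 of 3 libraries against 3 of 3 at each). The folds with Ikzf1/4 at these sites, 2.21 to 3.18, lie beside a 5th percentile of all members of 2.31 to 2.37 in the same lists.

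**Figure D3:**
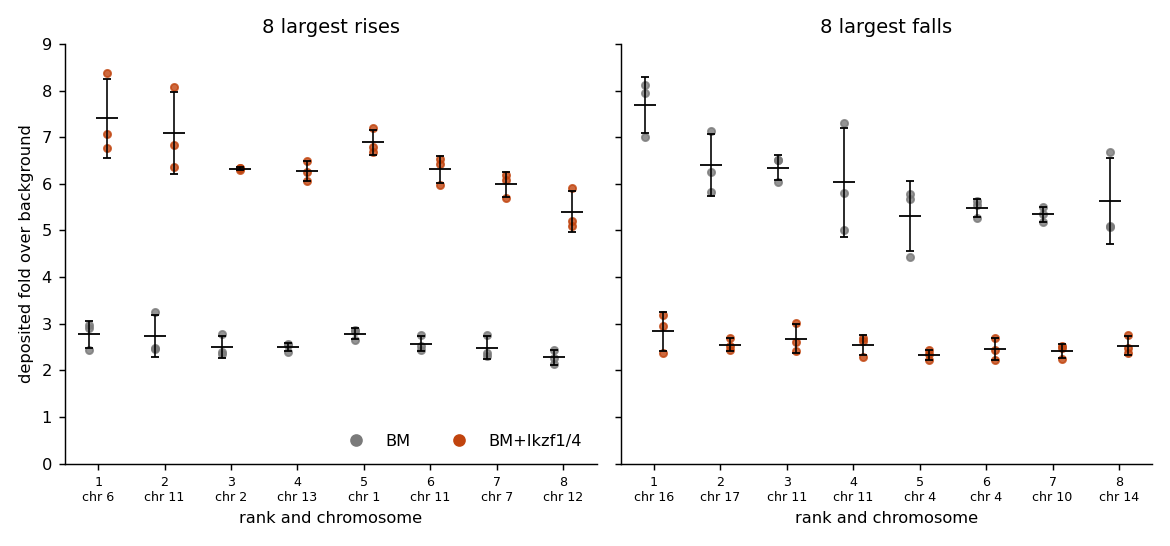
Deposited fold over background at the 8 largest rises (left) and the 8 largest falls (right), labelled by rank and chromosome; points are libraries, bars the mean ± SD of 3. The sites were chosen for groups that lie apart, and the lower group lies between 2.13 and 3.25.

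Few members had such separate levels. The deposited fold, uncentred, was at least 5 in all 3 lists with Ikzf1/4 and under 3 in all 3 BM lists at 42 members (0.0546% of all regions tested). The reverse held at 12 (0.0156%). On that scale rises outnumbered falls overall as well.

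The 5 sites of highest mean fold differed little between the groups, and whether these sites reflect accessible chromatin was not tested. The highest mean fold was that of chr17:68090293-68090872, at 30.4, 25.4 and 28.9 in the BM lists and 31.3, 30.9 and 32.1 with Ikzf1/4 (limma adjusted p = 0.113, log2 difference 0.09 ± 0.04 SE, n = 3 per group). Peaks there covered 574 bp in BM replicate 2 and 165 to 171 bp in the other lists, and without that library the difference was 0.02. It passed, at 0.16, only with the lists left uncentred (limma adjusted p = 0.0241). At chr2:57481902-57482137 the folds were 27.2, 27.9 and 28.5 and then 29.4, 28.8 and 29.6, and at chr17:71312994-71313238 they were 27.2, 26.1 and 24.1 and then 26.3, 25.2 and 26.8. Neither passed. At chr6:9839948-9840153 they were 25.9, 26.1 and 26.3 and then 25.8, 25.6 and 24.3. That last site passed in the centred fit (limma adjusted p = 0.0249) at a log2 difference of only -0.11 ± 0.03 (SE), and lost the call under 10 of its 18 alternatives, among them no centring (limma adjusted p = 0.272). At chr14:86598804-86598946 the folds were 23.5, 22.9 and 24.1 and then 24.6, 22.9 and 23.2.

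Many of the strongest sites had nearly the same ends in every list. At chr2:57481902-57482137 peaks of all 6 lists covered 236 bp, with the same first base. Both ends agreed to within 10 bp over the 6 lists in 50 members, and these made up 34 of the 50 members with the highest mean fold. Their median width was 340 bp and their median mean fold 16.5. Their median -log10 q was 187, against 5.20 over all members. Of the 50, 4 were called higher and 9 lower (26.0%, beside 21.5% of all regions tested).

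The extreme of -log10 q was chr2:98506400-98507477, picked after its values were seen. It reached 32991, 28670 and 39119 in the BM lists and 34379, 33910 and 31363 with Ikzf1/4, at a fold of only 9.16 to 9.71. In all, 9 members exceeded 1000 in every list. Whether such sites reflect accessible chromatin was not tested.

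**Figure D4:**
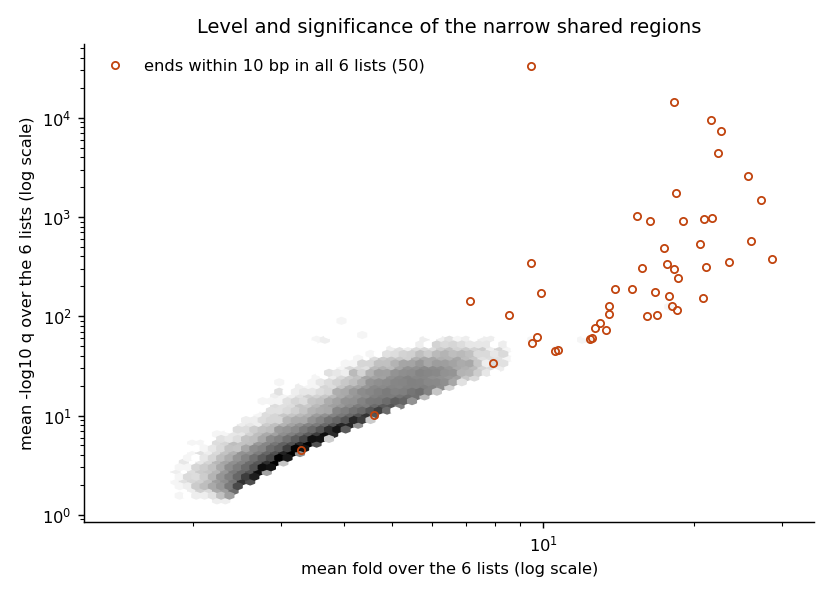
Mean fold (x) against mean -log10 q (y) over the 6 lists, both on log axes; grey hexagons count all members and circles mark the 50 whose first and last bases agree to within 10 bp in all lists. The circles have a median fold of 16.5, from 3.29 to 28.5, and a median -log10 q of 187. Over all members these medians are 3.30 and 5.20. The highest circle is the chromosome 2 site.

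Some strong sites were near constant over all 6 libraries. The 4 given here were picked for the smallest SD of log2 fold after centring, so small differences between groups are part of the choice. In the top decile by level, the most even was chr17:24615269-24616649, a 1381 bp region with folds of 5.70, 5.40 and 5.34 without and 5.76, 5.58 and 5.70 with Ikzf1/4. At chr5:107866581-107867674 the folds were 7.29, 7.12 and 6.90 against 7.49, 7.52 and 7.46, and at chr1:10029478-10030537 they were 5.41, 5.24 and 4.98 against 5.37, 5.39 and 5.37. Once each list is set to the same median, the log2 differences of these 3 sites lay between -0.02 and 0.01. The other, chr9:123370916-123371306, whose ends differed by at most 1 bp between lists, had folds of 22.1, 21.2 and 21.1 against 22.0, 22.0 and 22.1. Its -log10 q ran from 743 to 1398, and whether it reflects accessible chromatin was not tested.

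By level the shares of called sites were as follows. In the lowest decile by mean log2 fold, 2.28% of members were called higher and 7.23% lower, beside 9.79% and 11.8% of all regions tested. Which direction prevailed there depended on the scaling. The lowest decile had 5.65% higher and 3.80% lower without centring, and 4.92% and 4.40% with a loess curve between lists. It had 3.88% and 5.54% with quantile normalisation, and 4.52% and 5.81% for fold times covered length. The shares over all regions tested in these settings are given below. In the seventh decile, at a median mean fold of 3.62, 17.5% were higher and 13.5% lower, while in the top decile the shares were 3.99% and 14.0%. In the top decile falls also outnumbered rises without centring (6.12% higher, 7.85% lower, beside 13.2% and 7.43% of all regions tested). The shares with quantile normalisation were 6.50% and 8.01%, beside 10.5% and 10.1%, and for fold times covered length 0.746% and 1.19%, beside 6.11% and 6.45%. With a loess curve between lists, a setting chosen after seeing the data, 7.76% were called higher and 6.67% lower, beside 10.6% and 10.1%. With loess the share of rises was highest in the eighth decile, at 16.8%, with 13.5% falls. These shares were not tested against each other.

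By width the shares were as follows. Members of 750 to 999 bp were called higher in 13.4% of cases and lower in 14.0%, beside 9.79% and 11.8% of all regions tested. Those of 1750 to 1999 bp were called in 6.61% and 9.06% of cases. Those under 500 bp were at 7.22% and 12.3%. These shares were not tested against each other.

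**Figure D5:**
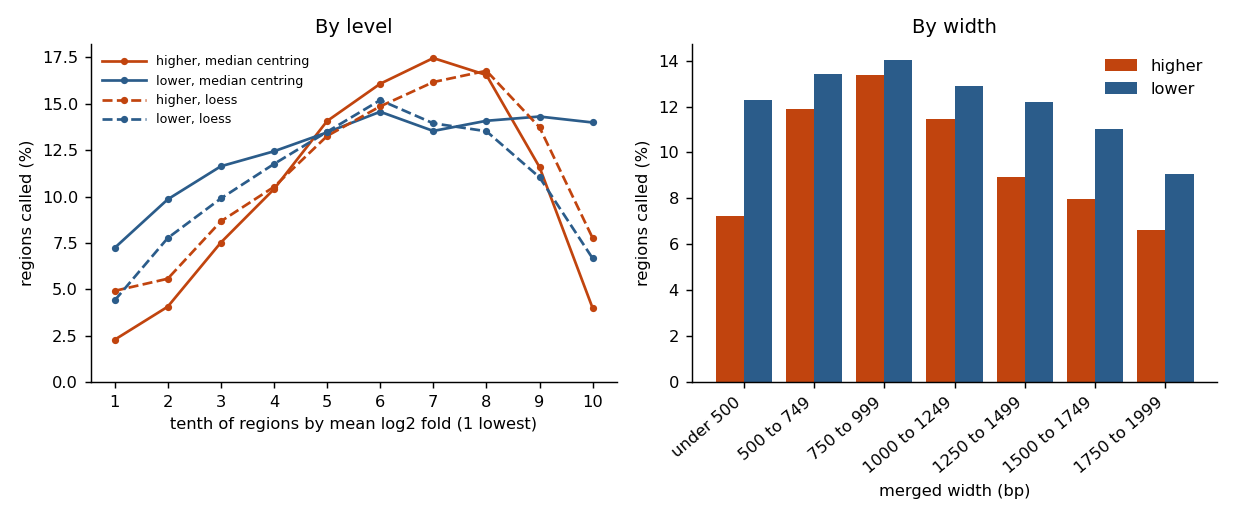
Percent of narrow shared regions called higher (orange) or lower (blue) with Ikzf1/4, by decile of mean log2 fold (left; solid lines median centring, dashed lines loess between lists) and by merged width (right). The share of rises is highest in decile 7 at 17.5% with centring, and the top decile goes from 3.99% to 7.76% rises with loess.

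Changes of level and of length went together only in part. Among raised members, 75.9% had more covered length with Ikzf1/4, and among lowered members 66.3% had less, beside 52.8% with more among those not called. As a value that joins both, fold times covered length was tested in the same way. It called 3899 members higher and 4130 lower, beside 6.11% and 6.45% of all regions tested, and of these calls 4290 had the same direction in the fold test and 51 the opposite one. The number of called sites thus fell from 15048 to 8029 on that scale.

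By chromosome, 8.92% (chromosome 4) to 12.4% (chromosome 13) of the members of an autosome were raised and 10.95% (chromosome 16) to 14.1% (chromosome 17) lowered. On the X chromosome 63 of 1078 (5.84%) were raised and 118 (10.9%) lowered, beside 9.79% and 11.8% of all regions tested. With quantile normalisation 6.22% of the X chromosome members were higher and 9.37% lower, beside 10.5% and 10.1% of all regions tested. With loess the shares were 6.59% and 9.28%, beside 10.6% and 10.1%. For fold times covered length they were 3.15% and 7.33%, beside 6.11% and 6.45%. Without centring, which moves all regions upward alike, they were 8.72% and 7.05%, beside 13.2% and 7.43%. The difference between the X chromosome and the rest was not tested.

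Adjacent members did not share a direction more than about evenly at most distances. Of the pairs of adjacent members that were both called, 54.5% went the same way at a gap of 10 to 50 kb, and 49.2% at 50 to 1000 kb. Adjacent members closer than 2 kb did so in only 27.4% of cases (59 of 215), and over all 4483 such pairs the log2 differences had a Pearson r of -0.15. The cause of these opposite changes was not tested. Raised members were a median of 26.5 kb from the nearest gained region, present in all lists with Ikzf1/4 and in no BM list, against 33.8 kb for lowered members and 31.2 kb for those not called. They were also nearer to regions lost in the same sense (61.7 kb, against 73.0 and 70.6 kb), so by the median raised members were nearer to both kinds. Gained regions lay within 10 kb of 23.3% of raised, 20.5% of lowered and 21.2% of uncalled members. Within 2 kb this order did not hold, at 4.42% of raised, 5.21% of lowered and 4.75% of uncalled members. Lost regions lay within 10 kb of 14.1% of raised, 9.80% of lowered and 11.3% of uncalled members. Within 2 kb of a lost region the shares were 3.63% of raised, 1.69% of lowered and 2.54% of uncalled members. These differences were not tested.

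A few stretches held several called sites in a row, and these were picked after their values were seen. The longest was a run of 7 adjacent lowered members at chr3:85727783-85934095, with log2 differences of -0.57 to -0.29. Runs of 6 lowered members lay at chr7:24918274-25055734 (-0.80 to -0.45), chr13:60120536-60344657 (-1.01 to -0.33) and chr10:81392450-81591556 (-0.56 to -0.21). The longest raised runs had 5 members, at chr11:81873155-81950442 (0.45 to 0.93), chr3:97153387-97289393 (0.40 to 0.68) and chr19:13571586-13892253 (0.33 to 0.72). Of all raised runs, 5336 consisted of 1 member, as did 6241 of the lowered ones. Whether these runs are longer than a random order would give was not tested.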

How the data were processed

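ATAC-seq of 6 fibroblast libraries was used, 3 per group. One peak list per library came from MACS2, per the labels. Bowtie2, mm9 and mm10 are named in the submitters' processing notes without a role. Contig names and chromosome ends of the lists fit mm9. The deposited lists have 9 columns and no summit, as MACS2 writes for broad peaks, where a peak's values are means over its length, so they depend on where its ends were set. The authors deposited a fold ratio over background, -log10 p, -log10 q and a score for each peak, which repeats the q on a coarser scale. Read depth is not in the lists and remains unknown here, and -log10 q grows with it. The authors' deposited RNA-seq table gave a mean normalised signal, a log2 fold change and an adjusted p-value, and served only to check the cell type.

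Peaks were merged at an overlap of 1 bp. Each list's highest fold or -log10 q in a region was taken on the log2 scale without a pseudocount, centred on the list's median over the 76980 regions in all 6 lists, and tested with limma 3.58.1 (R 4.3.3; eBayes with a trend, Benjamini-Hochberg adjustment, threshold 0.05). For library medians a two-sided exact permutation test was run in scipy 1.17.1. The merging and the limma fit were checked on simulated data. Named regions were the 5 with the highest mean fold, the 8 largest called changes in each direction with groups apart, the 4 most even of the top decile, 3 regions on each side of the width limit, and the narrowest and widest, with chromosome 18 and unplaced contigs left out. The regions and these rules were chosen with earlier results of these data known. Genes and sequence at the regions were not analysed here. Loess scaling and fold times covered length were chosen after seeing the data.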

Additional observations from a re-analysis of the deposited data

How the results depend on the processing

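The number of narrow shared regions, 65701, was 29842 at a width limit of 1000 bp and 16059 with only peaks at a -log10 q of at least 5. With 1 list left out it was 67879 to 82759, highest without BM replicate 3. Called changes of fold (15048, of which 6831 higher and 8217 lower) numbered 7571 (3537 and 4034) under 1000 bp. That was 25.4% of the members under 1000 bp, beside 21.5% of all regions tested. With only regions at a -log10 q of at least 5 in all 6 lists the calls numbered 1831 (925 and 906). Requiring an absolute log2 difference over 1 as well gave 101 (52 and 49, beside 0.0676% and 0.0637% of all tested). Fold times covered length gave 8029 (3899 and 4130), beside 6.11% and 6.45% of all tested. At a -log10 q of at least 5 the share called was 11.5%, against 22.9%, and 1470 of the 2421 calls among those regions remained after centring and fitting on them alone. The cause was not tested. Without centring, falls were 5273. Leaving out 1 library gave 10358 to 12404 calls, 4842 to 5788 higher and 5516 to 6728 lower. For fits with 1 library left out or at a -log10 q of at least 5, the share over all regions was not computed. Called changes of -log10 q (18768, of which 7962 higher and 10806 lower) numbered 3377 (1582 and 1795) at a -log10 q of at least 5, and 5389 falls without centring. Leaving out 1 library gave 13413 to 16331, with 5517 to 7209 higher and 7896 to 9309 lower. The difference of library medians, 0.06 in log2 fold and 0.776 in -log10 q, reversed to -0.00834 and -0.0198 over members at a -log10 q of at least 5 (exact permutation p = 0.7 and 1), and the cause was not tested. Leaving out 1 library gave 0.04 to 0.09 and 0.527 to 1.25. The 16 largest rises and falls kept direction and call under every alternative that holds the region (16 or 17 for each). The rise at chr12:37296283-37298281 (0.31, limma adjusted p = 0.0391) reversed to -0.32 for fold times covered length (limma adjusted p = 0.318) and lost its call with any 1 library left out or with the replicate block (limma adjusted p = 0.0557).

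With the replicate number as a block, limma called 14529 members by fold (6640 higher, 7889 lower, beside 9.47% and 11.2% of all regions tested) and 19093 (29.1%) by -log10 q, beside 27.9%. Deviations of same-numbered libraries had correlations of -0.01, -0.03 and -0.04 for fold, so over regions they did not deviate together. Whether same-numbered libraries shared a culture or a batch cannot be told from these values.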
